A study of Mus musculus with 6 samples.

Results

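Mitochondrial DNA encodes a small set of protein subunits of the respiratory chain, and 5 features of the small RNA table hold the messages for complexes III, IV and V: mt-Co1, mt-Co2, mt-Co3, mt-Atp8_6 and mt-Cytb. They were taken by name from the 30638 features counted, of which 36 are mitochondrial and 11 are mitochondrial mRNA features. mt-Atp8_6 is 1 joined feature for the overlapping genes mt-Atp8 and mt-Atp6. All 5 passed the filter on low counts, which left 1144 features to test. The libraries held inserts of 15 to 100 nt, while these features are 684 to 1545 nt long, so their counts are of fragments and not of whole messages.

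The hearts came from 6 C57BL/6 mice, 3 per group. The 3 control mice, titled L/L, carried loxP sites around an exon of Elac2 and no cre, although their genotype label reads Elac2 +/+. The 3 knockout mice, titled L/L, cre and labelled Elac2 -/-, carried the same floxed allele and a cre driven by the muscle creatine kinase promoter, which is active in striated muscle cells, so heart cells of other types are not its target. The labels used here name neither age nor sex. These libraries of short RNA give no check on the targeted gene, because Elac2 mRNA was not analysed. Labels give 1 library per mouse, from 4 technical replicates, with total counts from 13510061 to 16248673.

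Each strand of mitochondrial DNA is copied into a long transcript in which tRNAs lie between most of the mRNAs and rRNAs. RNase P cuts at the 5′ end of each tRNA and RNase Z, the product of Elac2, cuts at the 3′ end, and these cuts also free most of the mRNAs. mt-Co1, mt-Co2 and mt-Co3 encode the catalytic core of cytochrome c oxidase (complex IV), which passes electrons to oxygen. mt-Cytb encodes cytochrome b of complex III, and mt-Atp8 and mt-Atp6 encode membrane subunits of the ATP synthase (complex V). The heart, which depends on oxidative phosphorylation, is rich in these messages. The comparison addressed how loss of RNase Z changes mitochondrial and nuclear non-coding RNA.

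All 5 features lie on the + strand of the mitochondrial chromosome (GRCm38), within protein-coding genes without introns, and they differ in what bounds them. mt-Co2 (chrM:7013-7696) and mt-Atp8_6 (chrM:7766-8607) each start 1 base after a tRNA of the same strand, mt-Td for aspartate and mt-Tk for lysine. Those are the starts that a cut by RNase Z at a tRNA 3′ end would free. The sequences are shown because these tRNA ends and message starts are the cleavage sites in question, with the last 3 bases of each tRNA and the start codons of the messages in capitals. All sequences are from GENCODE M21 transcripts, + strand, 5′ to 3′.
mt-Td (chrM:6942-7011): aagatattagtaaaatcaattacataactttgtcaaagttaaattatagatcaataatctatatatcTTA
mt-Co2 start (chrM:7013-7042): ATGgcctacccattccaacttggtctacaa
mt-Tk (chrM:7700-7764): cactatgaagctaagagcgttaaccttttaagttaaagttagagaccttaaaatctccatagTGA
mt-Atp8 start (chrM:7766-7795): ATGccacaactagatacatcaacatgattt

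mt-Co1 (chrM:5328-6872) and mt-Cytb (chrM:14145-15288) follow a tRNA encoded on the other strand, mt-Ty for tyrosine with 1 base between and mt-Te for glutamate with 5 bases between. mt-Co1 also ends on the antisense of a tRNA: its last 3 bases, in capitals, are shared with mt-Ts1, a serine tRNA of the other strand. Reads in that overlap are uncertain, since no source used here gives the strand setting of the counting.
mt-Co1 start (chrM:5328-5357), start codon in capitals: ATGttcattaatcgttgattattctcaacc
mt-Cytb start (chrM:14145-14174), start codon in capitals: ATGacaaacatacgaaaaacacacccatta
mt-Co1 end and antisense of mt-Ts1 (chrM:6843-6938): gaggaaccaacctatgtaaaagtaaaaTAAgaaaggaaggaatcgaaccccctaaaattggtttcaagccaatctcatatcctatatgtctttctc

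mt-Co3 (chrM:8607-9390) is the 1 member with no tRNA before it. Its first base is the last base of mt-Atp6, the single capital in the junction printed here. Within mt-Atp8_6, mt-Atp8 and mt-Atp6 share 43 bases, also in capitals. At their 3′ ends mt-Co3 and mt-Cytb run into a tRNA with 0 bases between, mt-Tg for glycine and mt-Tt for threonine, whose sequences are in capitals in the other lines. mt-Co3 and mt-Cytb each end 1 base beyond whole codons, on a T, whereas mt-Co1, mt-Co2, mt-Atp8 and mt-Atp6 end on a TAA stop codon. Such unfinished stop codons are known to be completed by the poly(A) tail.
mt-Atp8 and mt-Atp6 overlap (chrM:7907-7989): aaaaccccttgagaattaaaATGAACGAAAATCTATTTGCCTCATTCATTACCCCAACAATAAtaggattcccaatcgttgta
mt-Atp6 and mt-Co3 junction (chrM:8587-8627): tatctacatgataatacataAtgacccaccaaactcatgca
mt-Co3 end, mt-Tg, mt-Nd3 start (chrM:9371-9478): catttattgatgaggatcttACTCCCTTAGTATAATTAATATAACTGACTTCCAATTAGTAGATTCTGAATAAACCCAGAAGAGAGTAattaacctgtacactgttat
mt-Cytb end and mt-Tt (chrM:15269-15355): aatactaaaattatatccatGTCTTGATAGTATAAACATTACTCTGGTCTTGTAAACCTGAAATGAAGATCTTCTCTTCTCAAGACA

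Reads of all 5 features fell in knockout hearts, by 4.63 to 27.6 times, and the fall was unequal: mt-Co1 and mt-Co2 fell most and mt-Co3 least. Levels are given as CPM, the counts per 1000000 counts of a library scaled by its TMM factor. Fold changes come from the quasi-likelihood test of edgeR, and adjusted p-values from the Benjamini-Hochberg method over the 1144 features. All 5 were called lower at an adjusted p under 0.05, where 27.0% of all tested features were lower and 50.2% were called in either direction. DESeq2's Wald test also called all 5 lower, where it called 25.6% of its features lower. No knockout library reached the lowest control library for any of the 5, which held for 33.7% of all tested features. The median log2 fold change was -3.60 over the 5 and -0.01 over all features tested. A log2 fold change as low as that of mt-Co3 or lower was found in 15.8% of tested features. In whole hearts, fewer muscle cells and less of an RNA per cell cannot be told apart.

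**Figure D1:**
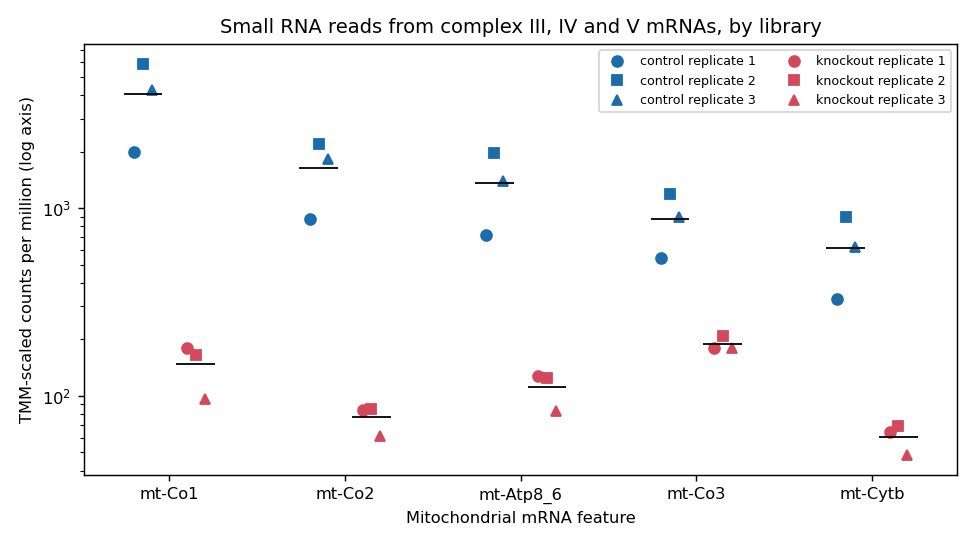
TMM-scaled CPM (log axis) of each of the 5 mRNA features in each library; points are single mice, shapes mark replicate numbers and lines the mean of 3 libraries. The groups are separate for every feature, and control replicate 1 is the lowest control library throughout. By mean, mt-Co3 is the highest of the 5 in knockout hearts but the 4th of 5 in control hearts. In knockout replicate 1 it is level with mt-Co1, at 179.7 against 179 CPM.

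Of the complex IV messages, mt-Co1, which encodes the subunit holding the haem and copper site where oxygen is reduced, stood at 2001 CPM in control replicate 1, 5891 in replicate 2 and 4249.6 in replicate 3. The knockout libraries, in the same order of replicates, held 179, 165 and 96.6 CPM. The lowest control library was thus 11.2 times above the highest knockout library. The log2 fold change was -4.78 (SE 0.40, adjusted p = 3.23e-06).

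mt-Co2, which encodes the subunit that takes electrons from cytochrome c, stood at 878, 2193 and 1818 CPM in control hearts. In knockout hearts it stood at 84.4, 84.9 and 61.1 CPM. The knockout libraries lay close together and the lowest control library was 10.3 times above the highest of them. The log2 fold change was -4.41 (SE 0.33, adjusted p = 1.55e-06).

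mt-Co3 encodes the third core subunit of the oxidase, which binds no metal centre. It stood at 542, 1185 and 898 CPM in control hearts and at 179.7, 208 and 179 CPM in knockout hearts. The groups were separate by the smallest margin of the 5, 2.60 times between the lowest control and the highest knockout library. The log2 fold change was -2.21 (SE 0.26, adjusted p = 3.40e-05). Its knockout libraries were also the most alike, with a coefficient of variation of 8.82%, against at least 17.7% for each of the other 4.

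The joined complex V feature mt-Atp8_6 stood at 723, 1961 and 1402 CPM in control hearts and at 128, 125 and 82.6 CPM in knockout hearts. Groups were 5.63 times apart at their nearest libraries, and the log2 fold change was -3.60 (SE 0.34, adjusted p = 7.28e-06). Reads of the 2 reading frames cannot be told apart in this feature. The complex III message mt-Cytb, the least abundant of the 5, stood at 327, 902 and 621 CPM in control hearts and at 64.2, 69.5 and 48.3 CPM in knockout hearts. Its groups were 4.71 times apart at their nearest libraries, and its log2 fold change was -3.35 (SE 0.34, adjusted p = 1.10e-05).

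In the authors' deposited table the log2 fold changes were -4.74 for mt-Co1, -4.36 for mt-Co2, -3.56 for mt-Atp8_6, -3.30 for mt-Cytb and -2.16 for mt-Co3. All 5 have an adjusted p under 0.05 in the authors' deposited table, where 20.6% of features with an adjusted p were lower by that rule. The order from mt-Co1 to mt-Co3 was the same there as in the counts fitted here.

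Library scaling moved these values but not their calls. A scaling factor acts alike on all features of a library, so the order of the 5 had little room to change. Factors from snRNA and nuclear rRNA genes gave the smallest falls, from -4.23 for mt-Co1 to -1.62 for mt-Co3, with a shift of 0.55 in the median over all features. Factors from snoRNA and scaRNA genes gave the largest, from -5.61 to -3.04, with a shift of -0.84. The share of tested features called lower was 19.6% and 57.6% in these fits. In each of the 15 other fits all 5 features were called lower. The order mt-Co1, mt-Co2, mt-Atp8_6, mt-Cytb, mt-Co3 was also kept, which for the scaling fits says little.

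**Figure D2:**
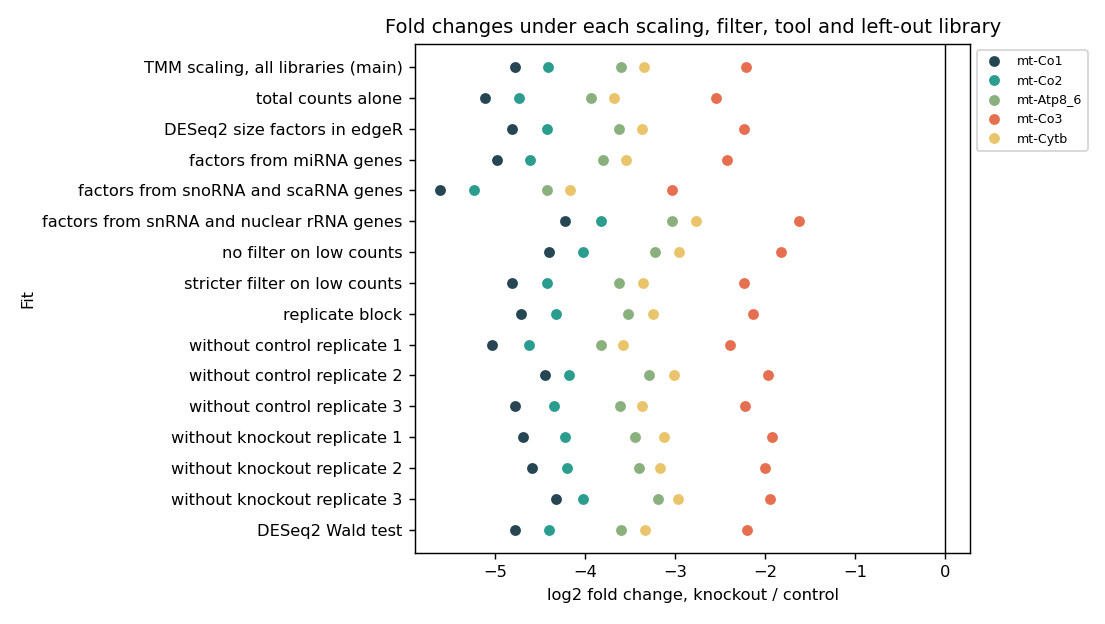
Log2 fold change of the 5 features (x axis) in each fit (y axis: library scaling, filter, tool, or left-out library). Every point lies below 0, and mt-Co3, the rightmost point of each line, ranges from -3.04 to -1.62.

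Control hearts varied more than knockout hearts, and 1 library accounted for much of the range. The ratio of control replicate 1 to the mean of the other control libraries was 0.395 for mt-Co1, 0.438 for mt-Co2, 0.43 for both mt-Atp8_6 and mt-Cytb, and 0.52 for mt-Co3. Among the 7 tRNAs beside the members the same ratio ran from 0.379 for mt-Td to 0.65 for mt-Tg, except for mt-Ty at 0.975. Without that library the log2 fold changes were -5.04 for mt-Co1, -4.63 for mt-Co2, -3.83 for mt-Atp8_6, -3.58 for mt-Cytb and -2.39 for mt-Co3.

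As a share of all counts, the 5 features together held 0.509%, 1.33% and 1.03% of the control libraries and 0.0603%, 0.0541% and 0.0416% of the knockout libraries. The means were 0.956% ± 0.414 and 0.0520% ± 0.00954 (SD, n = 3 each), 18.4 times apart. The groups did not overlap for any of the 5 or for the sum, which is made of the same 5. No rate of such separation over all features was taken on this measure. On TMM-scaled CPM it was 33.7%, and with total counts alone as the scale 37.7% of tested features were called lower by edgeR. Each of the 6 exact two-sided permutation tests gave p = 0.1 (adjusted p = 0.1), the smallest that 3 against 3 libraries allow. No exact test of this design can therefore pass 0.05.

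The makeup of these reads changed along with their amount. mt-Co1 supplied 46.9% ± 1.94 of the summed reads in control hearts and 24.7% ± 3.79 in knockout hearts (SD, n = 3), and mt-Co2 went from 19.3% ± 1.11 to 13.1% ± 0.144. mt-Co3 went the other way, from 10.6% ± 1.30 to 32.8% ± 5.08. Smaller gains were seen for mt-Atp8_6, from 16% ± 0.325 to 19.0% ± 1.28, and mt-Cytb, from 7.22% ± 0.278 to 10.4% ± 0.273. The groups did not overlap for any of the 5 shares, with exact two-sided permutation p = 0.1 for each (adjusted p = 0.1). These shares must sum to the whole, so a lower share of some members raises that of others.

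**Figure D3:**
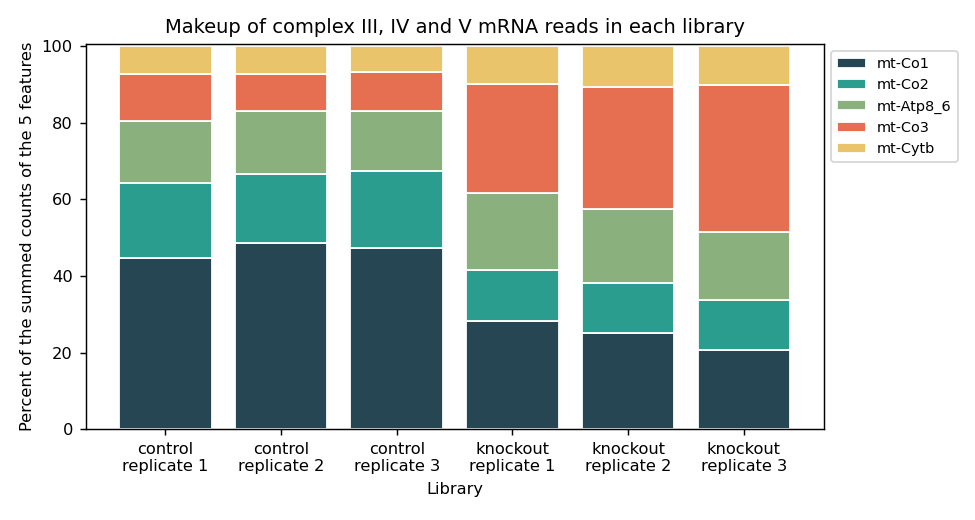
Percent of the summed counts of the 5 features (y axis) that each feature supplied in each of the 6 libraries (x axis). The mt-Co1 part shrank from 44.7% to 48.6% of control reads to 20.6% to 28.2% of knockout reads, and the mt-Co3 part grew from 9.76% to 12.1% to between 28.3% and 38.3%.

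Ratios between members within a library do not depend on library scaling, and all 10 pairs were compared. The log2 ratio of mt-Co1 to mt-Co3 was 1.88, 2.31 and 2.24 in the control libraries, by replicate number, against -0.01, -0.34 and -0.89 in the knockout libraries. mt-Co1 thus had several times the reads of mt-Co3 in each control heart. In knockout hearts it was level with mt-Co3 in replicate 1 (2465 against 2475 counts) and had fewer reads in replicates 2 and 3. The difference in means was -2.56, a 5.89-fold change of the ratio. The log2 ratio of mt-Co2 to mt-Co3 changed by -2.18 and that of mt-Atp8_6 to mt-Co3 by -1.37, and that of mt-Co3 to mt-Cytb by 1.10. The closest pairs were mt-Atp8_6 with mt-Cytb, whose log2 ratio changed by -0.27 from 1.15 ± 0.03 to 0.87 ± 0.11, and mt-Co1 with mt-Co2, which changed by -0.38 from 1.28 ± 0.13 to 0.90 ± 0.22 (SD, n = 3). Groups were separate for all 10 ratios, with exact two-sided permutation p = 0.1 for each (adjusted p = 0.1). The 10 ratios are built from only 5 features, so they are not independent results. No rate of such separation was taken over pairs of other features.

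Read density per length gave the levels on a common scale. In control hearts the means, in CPM per kb, were 2619.6 ± 1264 for mt-Co1, 2383 ± 990.2 for mt-Co2, 1618 ± 736 for mt-Atp8_6, 1116 ± 411 for mt-Co3 and 539 ± 251 for mt-Cytb (SD, n = 3). The ranges of each neighbouring pair in that order overlapped between control libraries, although mt-Co1 was above mt-Co2 in each library, by as little as 1295 against 1284 in control replicate 1. In knockout hearts mt-Co3 led with 241 ± 21.3, followed by mt-Atp8_6 with 133 ± 30.4, mt-Co2 with 112 ± 19.9, mt-Co1 with 95 ± 28.5 and mt-Cytb with 53.0 ± 9.65 CPM per kb. There mt-Co3 was above the other 4 in every library, while the ranges of mt-Atp8_6, mt-Co2 and mt-Co1 overlapped. Within each knockout library mt-Atp8_6 was nonetheless above mt-Co2 and mt-Co2 above mt-Co1, at 152, 123 and 116 CPM per kb in replicate 1, 149, 124 and 107 in replicate 2, and 98.1, 89.3 and 62.5 in replicate 3.

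**Figure D4:**
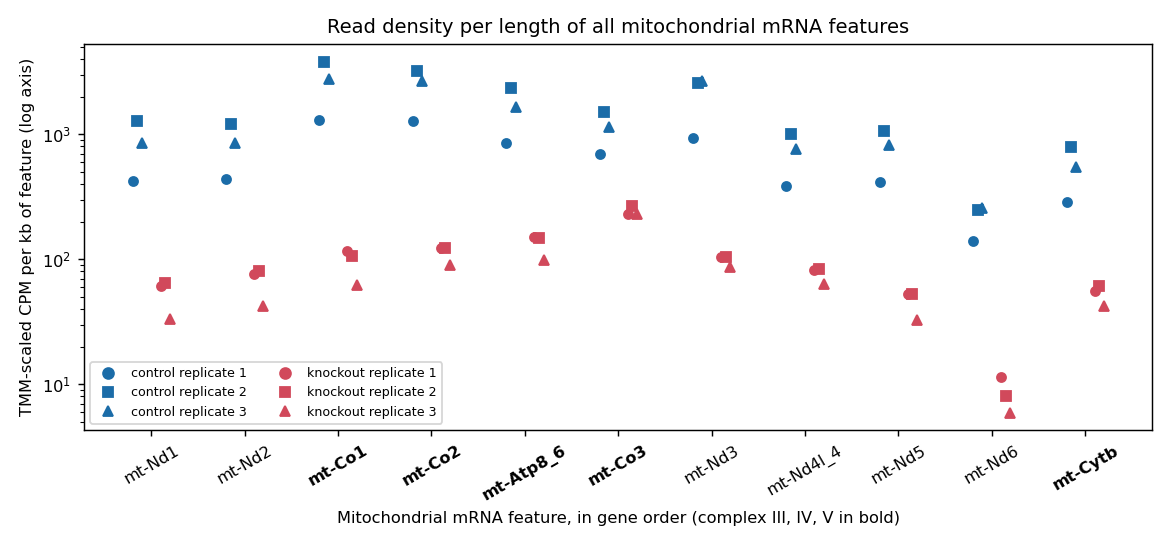
TMM-scaled CPM per kb (log axis) of all 11 mitochondrial mRNA features in each library, in gene order, with complex III, IV and V features in bold. In knockout hearts mt-Co3, at 229 to 266 CPM per kb, is the highest of the 11, and in control hearts mt-Co1, mt-Co2 and mt-Nd3 have the highest means.

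The 6 complex I mRNA features, subunits of NADH dehydrogenase, were the nearest group for comparison. All 6 were called lower, at a median log2 fold change of -4.03 (lowest -4.66, highest -3.24). The log2 ratio of the summed complex III, IV and V reads to the summed complex I reads was 0.75, 0.77 and 0.70 in control hearts and 0.62, 0.63 and 0.77 in knockout hearts. These overlapped (exact two-sided permutation p = 0.4, adjusted p = 0.4 over 3 ratios). When each feature was given equal weight, as a mean of log2 counts, the difference turned from -0.07 to 0.33 (exact p = 0.1, n = 3 per group).

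Of the single members, mt-Co3 departed from complex I and mt-Co1 did so less firmly. In the main fit mt-Co1, at -4.78, lay next to the lowest complex I feature, mt-Nd6 at -4.66. With library scale set by the summed complex I reads, a fit added after the data were seen, mt-Co3 was higher in knockout hearts by 1.57 on the log2 scale (SE 0.48, edgeR adjusted p = 0.00128), and lay between 1.39 and 1.70 with each library left out (edgeR adjusted p from 1.20e-05 to 0.0179). On this scale 85.1% of tested features were higher in knockout hearts and 1.66% were lower. mt-Co1 was lower, by -1.0 (SE 0.48, edgeR adjusted p = 0.0446). That call was lost without control replicate 3 (-1.01, adjusted p = 0.0969) and without knockout replicate 1 (-1.07, adjusted p = 0.126), 2 (-1.0, adjusted p = 0.156) or 3 (-0.93, adjusted p = 0.150). The values of mt-Co2 (-0.62, SE 0.47), mt-Cytb (0.45, SE 0.46) and mt-Atp8_6 (0.18, SE 0.47) did not pass the test, with adjusted p of 0.200, 0.350 and 0.718.

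The 2 mitochondrial rRNAs, which are copied near the start of the same strand's transcript, were themselves called lower, by far less. mt-Rnr1 had a log2 fold change of -0.77 (edgeR adjusted p = 0.00739) and mt-Rnr2 of -0.62 (edgeR adjusted p = 0.00455). With factors from snRNA and nuclear rRNA genes these were -0.23 and -0.07 and not called. The log2 ratio of the summed members to mt-Rnr1 plus mt-Rnr2 was -0.68, 0.31 and 0.28 in control hearts and -3.10, -3.01 and -3.40 in knockout hearts. The difference of -3.14 was 8.82-fold (exact two-sided permutation p = 0.1, adjusted p = 0.15). Against all 22 mitochondrial tRNAs summed, the log2 ratio went from -2.63 ± 0.21 to -3.22 ± 0.24 (SD, n = 3), without overlap (exact p = 0.1, adjusted p = 0.15). That sum is weighted to the most abundant tRNAs, led by mt-Ts2 at 24709 CPM in control hearts. With equal weight per feature the difference was -0.15 in place of -0.60 (exact permutation p = 0.3, n = 3 per group).

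The tRNAs beside the members fell as well, all 4 of the same strand and all 3 of the other strand. That was not particular to them: all 22 mitochondrial tRNAs were called lower, at a median log2 fold change of -3.43. mt-Tg, which directly follows mt-Co3, stood at 5054 ± 1193 CPM in control and 149 ± 37.1 CPM in knockout hearts (SD, n = 3). Its log2 fold change was -5.08 (SE 0.26, edgeR adjusted p = 2.55e-07). The member with the smallest fall in fragment reads therefore adjoins one of the more strongly lowered tRNAs. mt-Tt, which directly follows mt-Cytb, had a log2 fold change of -2.76 (SE 0.28). mt-Td and mt-Tk, ahead of mt-Co2 and mt-Atp8, were rare, at 12.8 ± 6.74 and 23.2 ± 13.2 CPM in control and 1.59 ± 0.700 and 2.77 ± 0.342 CPM in knockout hearts, with log2 fold changes of -2.99 and -3.06. On the other strand, mt-Ty before mt-Co1 had -2.58, mt-Ts1 after it -4.68 and mt-Te before mt-Cytb -5.50. The kinds of boundary hold 1 or 2 members each, so a relation between boundary and fold change was not tested.

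**Figure D5:**
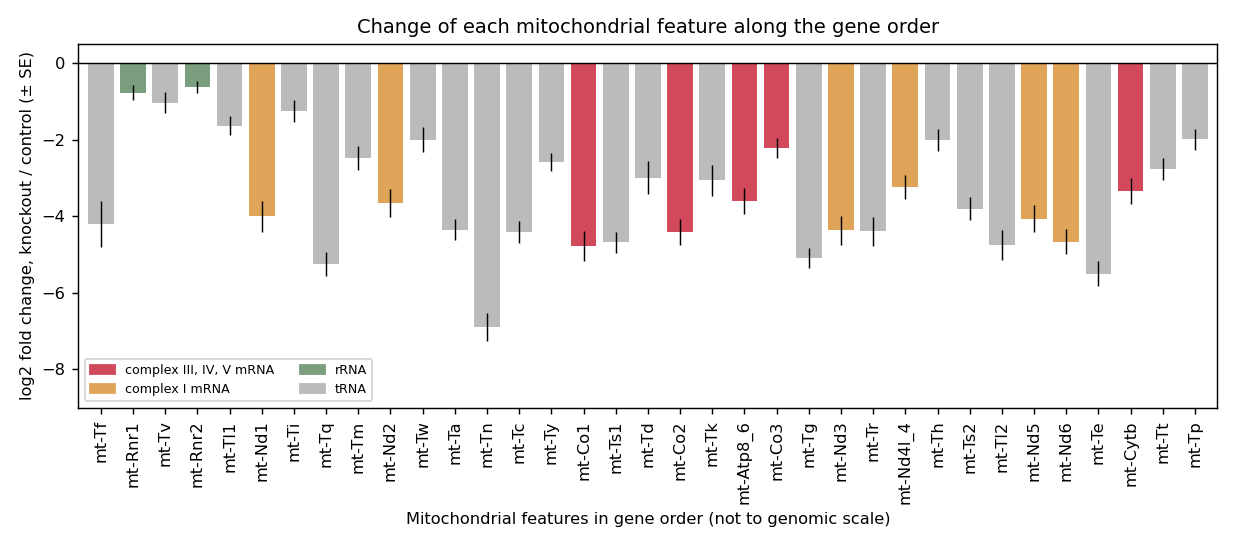
Log2 fold change of 35 mitochondrial features (bars, with error bars of 1 SE) in gene order, not to genomic scale. The mitochondrial 7S RNA, mt-7s, is not drawn and was not called lower (log2 fold change 0.19, edgeR adjusted p = 0.328). The 5 features of complexes III, IV and V are in red, and mt-Co3 at -2.21 stands between mt-Atp8_6 at -3.60 and mt-Tg at -5.08.

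Length and base composition were weakly related to the fall, and which relation was larger depended on the coefficient used. GC content was 35.2% to 39.9% over the 5. Across the 11 mitochondrial mRNA features, which share libraries and transcripts and are not independent, the log2 fold change had a Pearson r of 0.0914 with length and 0.239 with GC content (Spearman's rho 0.236 and 0.0909), given as a description.

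Nuclear copies of mitochondrial genes can take up such reads. BLASTN found 9 annotated pseudogenes that match a member over at least 30 nt at 90% identity, and all 9 had 0 counts in all 6 libraries. Gm28437 matches mt-Co3 over 783 nt, Gm28661 matches mt-Co2 over 681 nt and Gm10925 matches mt-Atp8_6 over 678 nt, each at 100% identity. Gm13340 matches mt-Co1 along its 1545 nt at 97.6%, and Gm11410 matches mt-Cytb over 1142 nt at 92.9%. Reads that fit both places were thus not assigned to these copies, and the rule for such reads is stated in no source used here. The full-identity copies cover 99.9% of mt-Co3 and 99.6% of mt-Co2. Those members still held 2383 to 21045 and 812 to 38960 counts per library. Reads that fit both places were therefore kept for these 2 members, at least in part. The levels of members with a copy at full identity are uncertain to that extent. The limit is not confined to them, because the inserts are much shorter than these matches. A short read can fit a copy wherever the copy does not differ. For mt-Co1, Gm29216 matches over 483 nt at 99.8% identity, besides Gm13340 along its length. How many reads of mt-Co1 or mt-Cytb fit a copy was not tested.

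The features whose profile over the 6 libraries was most like the mean of the 5 were found by root mean square distance of centred log2 CPM. Among mitochondrial features that are no members these were mt-Ts2 (distance 0.122), mt-Nd2 (0.134) and mt-Nd5 (0.214). Of the 5 nearest features outside the mitochondrial genome, 4 stood at 0.316 CPM or less in every knockout library (1810058I24Rik, Gm12231, Gm12338 and Hspd1-ps3). At such levels the prior count of 2 largely sets the log2 values, so nothing is read from their distances. The other was the Y RNA Rny3 (0.205), with 488, 909.6 and 951 CPM in control and 80.1, 71.4 and 42.5 CPM in knockout hearts. Of the members themselves, mt-Atp8_6 was nearest to their mean (0.0593), and mt-Co3 was farthest (0.739), ahead of mt-Co1 (0.573). Each member is part of that mean, and these distances largely restate the fold changes given above.

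Markers of heart cell types were measured in the same libraries. All 7 cardiac and striated muscle miRNAs were detected, and their summed level was 117767 to 147949 CPM in control and 72626 to 93228 CPM in knockout hearts, with 2 lower, 1 higher and a median log2 fold change of -0.44. Mir1a-1 and Mir1a-2, the most abundant of them, were lower (-0.57 and -0.61). Their values were close in each library, such as 56629.8 and 57516 CPM in control replicate 1, so the 2 lower calls are not independent. Mir133a-1 and Mir133a-2 were also close, at 1117 and 1123 CPM in control replicate 1, and the sum holds both genes of each pair. Mir208b, from an intron of a slow cardiac myosin gene, was higher (0.79). Mir208a, its counterpart in the main adult cardiac myosin gene, had -0.35 (edgeR adjusted p = 0.128). These calls depended on scaling: with factors from snRNA and nuclear rRNA genes Mir1a-2 had -0.04 (edgeR adjusted p = 0.952), and with factors from snoRNA and scaRNA genes Mir208b had -0.05 (edgeR adjusted p = 0.884). Mir208a was called lower with total counts alone (-0.7, edgeR adjusted p = 0.00776), miRNA factors (-0.54, 0.0462) and snoRNA and scaRNA factors (-1.2, 0.000157). It was not called with DESeq2 size factors (-0.38, edgeR adjusted p = 0.105) or with snRNA and nuclear rRNA factors (0.2, 0.522). Fibroblast miRNAs summed to 1156 to 1627 CPM in control and 2217 to 2344 CPM in knockout hearts, with 2 of 2 tested higher and Mir199a-2 and Mir214 at 0. The 2 tested, Mir199a-1 (-0.05) and Mir199b (-0.09), were not called with snoRNA and scaRNA factors. Endothelial (19519.9 to 23749 against 17609.5 to 20959.5 CPM, Mir126b at 0) and smooth muscle sums (26656 to 33554 against 22059 to 30017 CPM) overlapped between the groups. Red cell sums (2643 to 3694 against 2203 to 2919.5 CPM, 1 of 3 higher and 1 lower) overlapped too. Leukocyte sums were low, at 125 to 156 CPM in control and 159 to 193 CPM in knockout hearts, with 1 of 2 tested genes lower, none higher, and Mir223 and Mir155 at 0. The part of cell makeup in the fall of the 5 features was not tested.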

How the data were processed

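Per the labels' protocols, RNA from whole hearts was made into small RNA libraries and sequenced in paired ends. Every test started from the raw counts that the authors deposited, 1 file per mouse. Their deposited comparison gives log2 fold changes, p-values, a test score and a mean normalized signal for each feature. The submitters' processing notes name the build mm10, DESeq2 1.16.1, featureCounts 1.5.1, cutadapt 1.14 and Bowtie2 2.2.9, with no settings. Strand setting, annotation, treatment of reads with several alignments and the merging of technical replicates were not given in any source used here. Multi-mapping and strand could change counts where genes overlap or have copies.

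Features were kept by filterByExpr (minimum count 10, minimum total 15), scaled by TMM (factors 0.828 to 1.15) and tested with edgeR 4.0.16 in R 4.3.3. DESeq2 1.42.0 was an alternative. The biological coefficient of variation was 0.217. Differences in shares and log2 ratios (0.5 added to counts for pairs) were tested with exact two-sided permutation tests in SciPy 1.17.1, adjusted within each family. Sequences and positions came from GENCODE M21 (GRCm38), and copies from BLASTN 2.17.0. The edgeR step was tested on simulated data. The p-values measure only the spread between these mice. Libraries of a group were distinct, with a chi-square per degree of freedom of at least 79.1. The lowest member count was 642. The members, lists and tests were chosen with earlier results of these data known. Named features were the members, their neighbours, the complex I mRNAs and rRNAs, sequence copies, and the features with the most similar profile. All 9 copies tied at 0 counts. Those named are a match at full identity where there is one and otherwise the longest, with Gm29216 added for its high identity. These choices were made after their values were seen. The leukocyte miRNA Mir142a is listed as Mir142, and Mir486b was not found by name. The fit scaled by complex I reads was chosen after seeing the data.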

Additional observations from a re-analysis of the deposited data

How the results depend on the processing

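All 5 features kept their direction and call in each of the 15 other fits. Log2 fold changes with 1 library left out ran from -5.04 to -4.32 for mt-Co1, -4.63 to -4.03 for mt-Co2, -3.83 to -3.19 for mt-Atp8_6, -3.58 to -2.97 for mt-Cytb and -2.39 to -1.92 for mt-Co3. Leaving out a knockout library shifted the median over all features by 0.21 to 0.24, with more features tested. The number of features called, 574 of 1144, was 1141 without a filter on low counts (9254 tested), 377 with a stricter filter (653 tested), 907 by DESeq2's Wald test (2478 tested), and 486 to 908 with 1 library left out, the highest without control replicate 1 (1410 tested). The share of higher calls was 46.2%, and 13.3% to 64.6% across scalings. As a share of mitochondrial counts, mt-Co3 differed by 0.0598 percentage points upward (exact permutation p = 0.4, n = 3 per group), while the other 4 were lower. The ratio to complex I reads reversed, to 0.33, with equal weight per feature, and the ratio to tRNA reads shrank to -0.15. The cause of either reversal was not tested. With the replicate number as a block, 536 features were called and the members' log2 fold changes were -4.72, -4.33, -3.53, -3.25 and -2.14 in the order above. The exact test over 3 pairs cannot go below p = 0.25. Libraries of the same number did not deviate together over all tested features (correlations of -0.134, -0.0163 and -0.192). With 3 libraries per group this showed no sign of pairing by number but cannot exclude one. Exact tests with 1 library left out cannot go below p = 0.2.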

Other observations

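Knockout replicate 3 was the lowest knockout library for all 5 features, but to an unequal degree. It held 96.6 CPM of mt-Co1, against 179 and 165 CPM in the other knockout libraries, while its 179 CPM of mt-Co3 lay next to 179.7 and 208 CPM. The complex I messages mt-Nd1 (32.0 against 59.0 and 62.0 CPM) and mt-Nd2 (43.8 against 79.6 and 83.3 CPM) were low in the same library, whereas mt-Nd3 (30.5 against 36.7 and 36.5 CPM) differed less. These features were chosen after their values were seen, and no test was made on single libraries.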
